A study of Mus musculus with 6 samples.

Results

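The nuclear genes of the structural subunits of respiratory complex I were compared between osteoclasts and BMMs. A gene was a member if its symbol was Nduf, then a, ab, b, c, s or v, then a number, which left out the assembly factors, and 37 of the 49315 genes in the table met this rule. All 37 are protein coding, they lie on 15 chromosomes, and all passed the filter on low values described below. From the known structure of the mammalian complex, 16 were placed in the matrix arm and 19 in the membrane arm. Ndufab1, whose product sits in both arms, and Ndufa4, whose product was first named as a complex I subunit and later assigned to complex IV, were kept in neither arm. The osteoclast libraries (3) came from wild-type mouse bone marrow cultures at day 4 of differentiation with 75 ng/mL RANKL, the cytokine that drives osteoclast formation, and CMG14-12 supernatant, a source of M-CSF, at 1 part in 50. The BMM libraries (3) came from wild-type bone marrow macrophages at day 0, which had been grown in medium with 10% of that supernatant and no RANKL. No cultures kept for the same time without RANKL were sequenced, so RANKL, the supply of M-CSF and time in culture cannot be told apart. Replicates are labelled as biological, but no animals or cultures are named, and p-values thus cover the spread between these libraries alone.

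Complex I takes electrons from NADH, passes them along FMN and a chain of iron-sulfur clusters to ubiquinone, and pumps protons across the inner mitochondrial membrane. Its matrix arm holds the NADH module at the tip and the ubiquinone module at the base, and its membrane arm holds the proton pumps. The nuclear genome encodes the core subunits of the matrix arm, which carry the cofactors and have counterparts in bacteria, whereas the core subunits of the membrane arm are encoded by the mitochondrial genome. All remaining subunits are accessory, and these surround and stabilize the core. Osteoclasts form by fusion of macrophage precursors and are rich in mitochondria.

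The identity of the cultures was checked on marker genes. Values are TPM, a measure of transcript abundance that is scaled by gene length and sums to 1000000 in each library, and the number of reads behind them is unknown. The 12325 genes whose 6 libraries averaged 1 TPM or more were tested with limma on log2(TPM + 1), where SE is the standard error of the log2 fold change, and a call required an adjusted p under 0.05. Of 10 osteoclast markers, 10 were higher in osteoclasts (median log2 fold change 7.05). Of 10 macrophage markers, 8 were lower and 1 was higher. All 8 neutrophil markers that passed the filter were lower in osteoclasts, and the summed level of the 9 listed was 15.0 to 26.6 TPM in osteoclasts and 3005 to 3276 TPM in BMMs, with Elane and Ly6g at 0 in every osteoclast library. All 5 stromal markers that passed the filter were higher. The 7 listed summed to 172 to 216 TPM in osteoclasts and 10.2 to 10.9 TPM in BMMs, with Lum at 0 throughout. Dcn, which did not pass, overlapped between the groups, with means of 0.610 TPM in osteoclasts and 0.359 TPM in BMMs. Some markers, such as Oscar, Postn, Elane and Mpo, passed only through the group where they were high, so these counts partly follow from the filter. Of all genes tested, 45.3% were called higher and 23.5% lower. In bulk RNA a change in the share of a cell type and a change in RNA per cell cannot be told apart, and the part of the neutrophil and stromal transcripts in the values below was not tested.

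The promoters of the members were read for short motifs of factors known to act on respiratory genes, and the sequences are shown because they are a feature that the choice of members did not use. RefSeq promoters of build GRCm38.p6, each from 250 bases before to 50 bases after the annotated start, were matched for 33 of the 37 members. The letters AAGATGGC, a core of the YY1 motif, were found on either strand in 7 of the 33 promoters (21.2%), against 2.88% of all 27025 promoters and 5.17% of the 8998 promoters of genes that were tested. In all 7 the letters lay on the gene strand, 22 to 38 bases after the start, and the ATG within them was the annotated start codon in 7 of 7. On the gene strand and downstream of the start, 21.2% of member promoters, 0.958% of all promoters and 2.43% of promoters of tested genes held them. The 7 stretches of 30 bases follow with the motif in capitals, each read 5′ to 3′ on the strand of its gene.
Ndufs7, core subunit of the ubiquinone module, chr10:80249462-80249491, plus strand: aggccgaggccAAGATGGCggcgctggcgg
Ndufs4, NADH module, chr13:114388045-114388074, minus strand: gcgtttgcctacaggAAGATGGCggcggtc
Ndufs6, NADH module, chr13:73328433-73328462, minus strand: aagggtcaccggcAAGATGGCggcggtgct
Ndufa9, ubiquinone module, chr6:126849097-126849126, minus strand: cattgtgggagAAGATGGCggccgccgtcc
Ndufa3, proximal membrane arm, chr7:3617384-3617413, plus strand: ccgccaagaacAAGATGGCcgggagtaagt
Ndufc1, proximal membrane arm, chr3:51408915-51408944, minus strand: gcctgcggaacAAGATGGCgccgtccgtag
Ndufb8, distal membrane arm, chr19:44555393-44555422, minus strand: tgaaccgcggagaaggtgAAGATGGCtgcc

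These 7 genes belong to both arms (4 matrix and 3 membrane). Their median log2 fold change was 1.02, against 1.06 for the 26 other members with a promoter. The other motifs were found in fewer member promoters, or at a share below that of promoters of tested genes. GCGCATGC, the letters of nuclear respiratory factor 1, was found in 3 member promoters (9.09%, against 5.77% of promoters of tested genes), which are shown next with the motif, or its reverse complement, in capitals. The Ndufa11 stretch holds it on both strands in overlap.
Ndufa6, NADH module, chr15:82354356-82354385, minus strand: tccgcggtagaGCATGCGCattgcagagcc
Ndufa8, proximal membrane arm, chr2:36049328-36049357, minus strand: tcgctggagacGCATGCGCagatggtaccg
Ndufa11, proximal membrane arm, chr17:56717692-56717721, plus strand: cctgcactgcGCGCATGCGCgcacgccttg

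Both strands were searched for each motif. AAGGTCA, the letters bound by estrogen-related receptors, was found in 3 member promoters (Ndufb2, Ndufb4 and Ndufs5, 9.09% against 3.15% of promoters of tested genes), all of the membrane arm. CCGGAAG of the ETS family was found in 12.1% of member promoters and 19.8% of promoters of tested genes. GGGCGG, the SP1 letters, was found in 45.5% and 65.1% of them. A match describes the sequence only and is not a measured binding site.

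Transcripts of all 37 members were higher in osteoclasts than in BMMs. By limma all 37 were called higher, in a comparison in which 45.3% of all genes tested were called higher and 23.5% lower. In all 37 the lowest osteoclast library lay above the highest BMM library, as it did for 47.4% of all genes tested, and the ratio of these 2 libraries ranged from 1.26 in Ndufa7 to 2.89 in Ndufv1. The median log2 fold change of the members was 1.05, with a range of 0.50 to 1.61. All genes tested had a median of 0.19 and quartiles of -0.23 and 0.62, and 34 of the 37 members lay at or above the upper quartile. The log2 fold change was at least 1 in 22 members, which was so, together with the call, for 13.6% of all genes tested. Without Ndufa4, the 36 complex I genes summed to 0.771% ± 0.0582 of all TPM in osteoclasts and 0.368% ± 0.00207 in BMMs (SD, n = 3 each). All 37 calls and their direction held after median-ratio scaling of the libraries, which set the typical gene to no change and left log2 fold changes of 0.29 to 1.40. With that scaling 4149 genes were higher and 4131 lower, against 5585 and 2901 with the TPM as deposited.

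**Figure D1:**
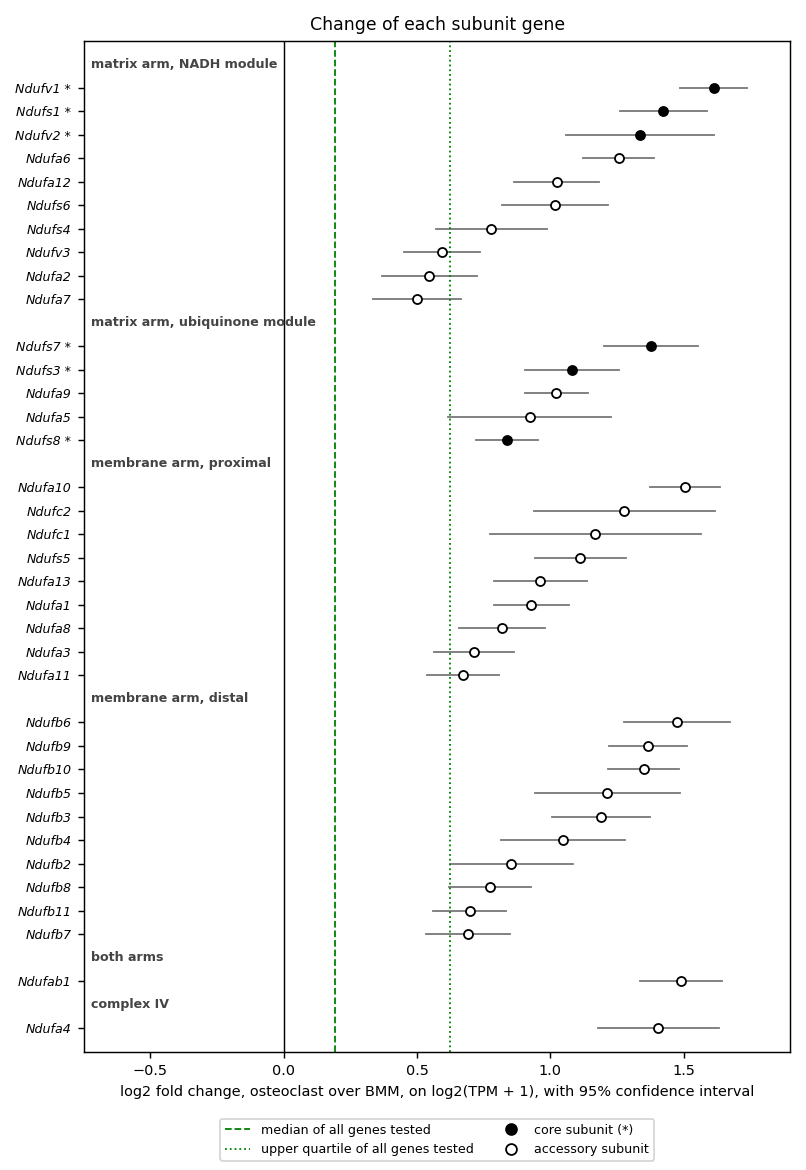
Log2 fold change (x axis, osteoclast over BMM, on log2(TPM + 1)) of 36 of the members, ordered within each module, with 95% confidence intervals from limma as lines, filled points and asterisks for core subunits, open points for accessory subunits, and green lines for the median (0.19) and upper quartile (0.62) of all genes tested. Every interval lies above the median of all genes, and the points spread from 0.50 (Ndufa7) to 1.61 (Ndufv1) with both ends in the NADH module.

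The members differed far more in level than in change. The mean level ranged from 17.1 ± 2.33 TPM (Ndufb2) to 556 ± 58.0 TPM (Ndufa2) in osteoclasts and from 8.96 ± 0.250 TPM (Ndufb2) to 379 ± 4.07 TPM (Ndufa2) in BMMs (SD, n = 3 each), with the same genes at both ends. The highest level was 32.6 times the lowest in osteoclasts and 42.4 times in BMMs. The order of the members was nearly the same in both groups (Spearman's rho 0.96 and Pearson's r of log2 levels 0.96 over 37 genes, a description over genes that share the same libraries). At the top in osteoclasts, Ndufa2, Ndufb9 (553 ± 40.8 TPM) and Ndufa6 (536 ± 33.7 TPM) differed by less than their spread. The level in BMMs and the size of the change had a rho of -0.03 over the 37 genes.

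**Figure D2:**
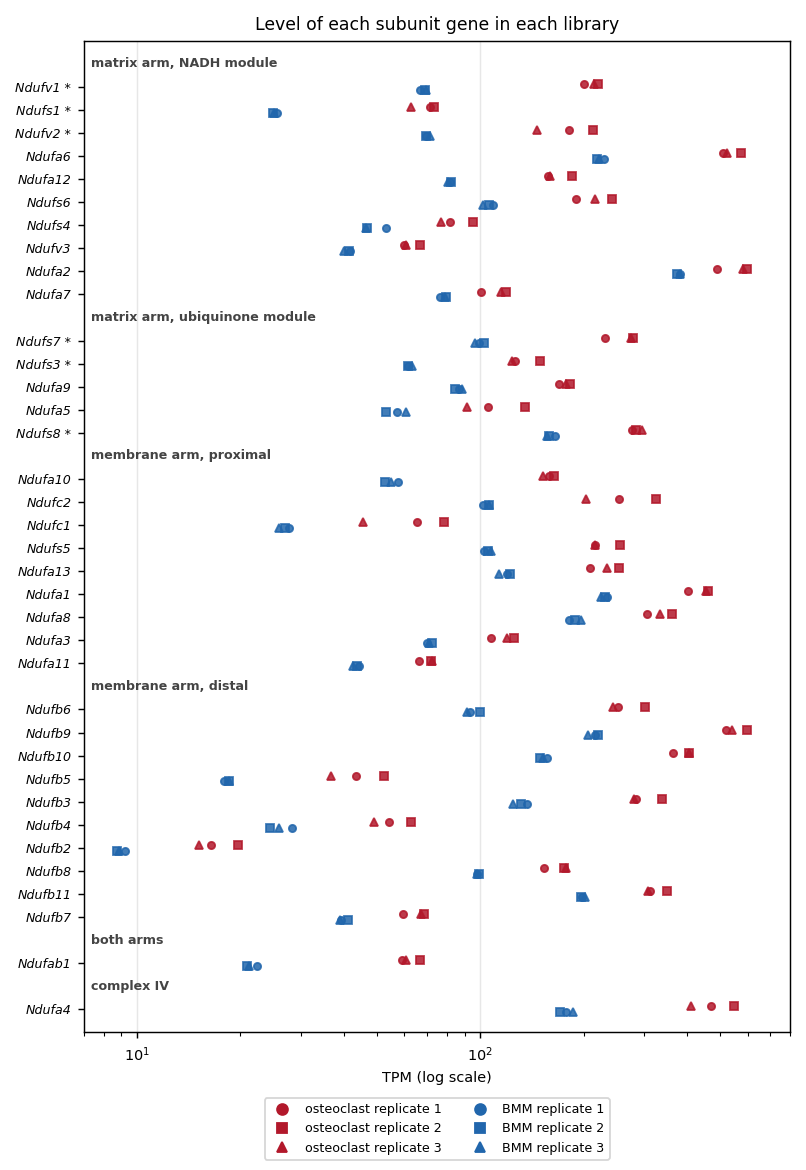
TPM of 36 of the members (x axis, log scale) in each library, with osteoclast replicates in red above BMM replicates in blue, and circles, squares and triangles for replicates 1, 2 and 3. In each of the 36 genes the 3 osteoclast points lie to the right of the 3 BMM points, and the square of osteoclast replicate 2 is the rightmost in 32.

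The NADH module showed the widest range of change. Ndufv1, which binds NADH and FMN and is where electrons enter the complex (ENSMUSG00000037916, chromosome 19 of GRCm38 from 4007384 to 4012806), measured 201, 220.1 and 214 TPM in osteoclasts and 66.8, 69.2 and 69.5 TPM in BMMs. The groups stood far apart, with a log2 fold change of 1.61 (SE 0.05, limma adjusted p = 1.0e-07). Ndufs1, the large core subunit that carries several of the iron-sulfur clusters (ENSMUSG00000025968, chromosome 1 from 63143596 to 63176833), measured 71.5, 73.5 and 63.0 TPM in osteoclasts and 25.5, 24.9 and 25.1 TPM in BMMs. Its log2 fold change was 1.42 (SE 0.07, limma adjusted p = 7.0e-07). Ndufv2, the third core subunit of this module (ENSMUSG00000024099, chromosome 17 from 66078638 to 66101559), holds a further iron-sulfur cluster. It measured 181, 213 and 147 TPM in osteoclasts and 69.4, 69.2 and 71.2 TPM in BMMs, so that osteoclast libraries differed widely among themselves but none reached the BMM level. The log2 fold change was 1.34 (SE 0.12, limma adjusted p = 2.1e-05).

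The 7 accessory genes of the NADH module had log2 fold changes of 0.50 to 1.26. Ndufa6, an LYR-motif protein that binds the acyl carrier protein, was the highest of them at 1.26 (510.4, 574 and 524 TPM in osteoclasts, against 229.9, 219 and 222 TPM in BMMs). Ndufa12, a paralog of the assembly factor Ndufaf2 (1.02), Ndufs6, a zinc-binding subunit (1.02), and Ndufs4, which is needed for a stable NADH module (0.78), followed. Ndufv3, an accessory subunit beside Ndufv1 and Ndufv2, was at 0.59. The smallest changes of the matrix arm were those of Ndufa2 and Ndufa7. Ndufa2, which has a thioredoxin-like fold (ENSMUSG00000014294, chromosome 18 from 36742332 to 36744557), measured 489.9, 596 and 584 TPM in osteoclasts and 382, 375 and 382 TPM in BMMs. The lowest osteoclast library was clear of the BMM libraries, and the log2 fold change was 0.55 (SE 0.08, limma adjusted p = 3.0e-04). Ndufa7 (ENSMUSG00000041881, chromosome 17 from 33824572 to 33838317) measured 100.4, 119 and 115 TPM in osteoclasts and 76.4, 79.6 and 79.0 TPM in BMMs, with a log2 fold change of 0.50 (SE 0.07, limma adjusted p = 3.4e-04).

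In the ubiquinone module, the core genes Ndufs7 and Ndufs3 had log2 fold changes above 1. Ndufs7, which holds the last cluster before ubiquinone (ENSMUSG00000020153, chromosome 10 from 80249121 to 80256794), measured 231, 278 and 274 TPM in osteoclasts and 99.4, 103 and 96.5 TPM in BMMs. The log2 fold change was 1.38 (SE 0.08, limma adjusted p = 1.3e-06). Ndufs3, a core subunit without a cluster of its own (ENSMUSG00000005510, chromosome 2 from 90894634 to 90904827), measured 126, 149 and 124 TPM in osteoclasts and 61.6, 61.6 and 63.4 TPM in BMMs, a log2 fold change of 1.08 (SE 0.08, limma adjusted p = 5.0e-06). Ndufs8 had a smaller change than these core genes. This subunit, which carries iron-sulfur clusters (ENSMUSG00000059734, chromosome 19 from 3908863 to 3912774), measured 277, 285 and 296 TPM in osteoclasts and 165, 158 and 156 TPM in BMMs. Its log2 fold change was 0.84 (SE 0.05, limma adjusted p = 2.0e-06), although in BMMs it was the most abundant of the core genes. The accessory genes of the module were Ndufa9, which has a dehydrogenase-like fold (1.02), and Ndufa5 (0.92), whose osteoclast libraries spread from 91.4 to 135 TPM.

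Within the matrix arm, the 7 core genes had a median log2 fold change of 1.38 (0.84 to 1.61) and the 9 accessory genes one of 0.92 (0.50 to 1.26). A log2 fold change of at least 1 was reached by 6 of the 7 core genes and 4 of the 9 accessory genes. Together with the call, it was reached by 13.6% of all genes tested. Both medians lay above the 0.19 of all genes tested. The difference of the medians was 0.456, and it ranged from 0.39 to 0.56 when single libraries were left out. Its spread over libraries was 0.15, the root of the summed squares of the SD over osteoclast and the SD over BMM libraries. In each osteoclast library set against the BMM mean, the core median was above the accessory median (1.36, 1.51 and 1.29 against 0.84, 1.07 and 0.67). In TPM, the core genes summed to 1534 ± 86.2 in osteoclasts and 629 ± 0.960 in BMMs, and the accessory genes to 2022 ± 166 in osteoclasts and 1102 ± 14.9 in BMMs (SD, n = 3 each). This split is a description of a few genes and was not tested as a set.

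The proximal membrane arm, where the membrane arm meets the matrix arm, ran from Ndufa10 to Ndufa11. Ndufa10, which has the fold of a nucleoside kinase and faces the matrix (ENSMUSG00000026260, chromosome 1 from 92439010 to 92473860), measured 158, 164 and 152 TPM in osteoclasts and 57.6, 52.8 and 54.8 TPM in BMMs. Its replicates were close together in both groups, and its log2 fold change of 1.51 was the largest of the membrane arm (SE 0.06, limma adjusted p = 1.8e-07). Ndufa11, a subunit with several membrane helices (ENSMUSG00000002379, chromosome 17 from 56717767 to 56722141), measured 66.1, 71.8 and 72.2 TPM in osteoclasts and 44.3, 43.8 and 42.5 TPM in BMMs. The log2 fold change was 0.67 (SE 0.06, limma adjusted p = 1.7e-05), the smallest of this arm. Between them lay Ndufc2 (1.28), Ndufc1 (1.17), Ndufs5 (1.11), Ndufa13, also known as GRIM-19 (0.96), the single-helix subunit Ndufa1 (0.93), Ndufa8 (0.82) and Ndufa3 (0.71). Ndufs5 and Ndufa8 are both twin CX9C proteins of the intermembrane space. Ndufc1 and Ndufc2 had the largest SD relative to the mean of all members in osteoclasts (26.2% and 23.6%). Ndufc1 measured 65.5, 78.4 and 45.6 TPM in osteoclasts and 27.8, 27.0 and 25.9 TPM in BMMs, and Ndufc2 measured 253, 325 and 203 TPM in osteoclasts and 102, 106 and 106 TPM in BMMs.

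The members placed in the distal membrane arm were the 10 Ndufb genes that met the rule. A subunit gene with a symbol outside the rule would not be among them. Ndufb6 (ENSMUSG00000071014, chromosome 4 from 40270591 to 40279421) had the largest change, at 253, 302 and 243 TPM in osteoclasts and 93.0, 99.7 and 91.2 TPM in BMMs. The log2 fold change was 1.47 (SE 0.09, limma adjusted p = 1.7e-06). Ndufb9, an LYR-motif subunit that binds the second copy of the acyl carrier protein, was the most abundant of the distal genes. Its log2 fold change was 1.37 (519, 598 and 542 TPM in osteoclasts, against 215, 219 and 206 TPM in BMMs). Ndufb10 (1.35), Ndufb5 (1.21), Ndufb3 (1.19) and Ndufb4 (1.05) were also above 1, and Ndufb2 (0.85), Ndufb8 (0.77) and the X-linked Ndufb11 (0.70) were below it. Ndufb7, a twin CX9C subunit of the intermembrane space (ENSMUSG00000033938, chromosome 8 from 83566671 to 83571626), had the smallest change among the distal genes. It measured 59.6, 68.6 and 67.0 TPM in osteoclasts and 39.3, 41.2 and 39.1 TPM in BMMs, a log2 fold change of 0.69 (SE 0.07, limma adjusted p = 3.8e-05). Parts of some of these transcripts also occur in other annotated transcripts, so their reads may be divided between genes. In windows of 150 bases the shared part was 20.5% for Ndufa13, 16.4% for Ndufb6, 13.6% for Ndufb4 and under 10% for all other members. The genes that share sequence with Ndufa13, Ndufb6 and Ndufb4 (Tssk6, Smim27 and Ndufb4c) were at 8.13 TPM or less in every library. Mrpl47, which shares 8.61% of the Ndufb5 windows, measured 12.5, 14.7 and 11.6 TPM in osteoclasts and 4.14, 4.21 and 4.40 TPM in BMMs.

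Ndufab1 encodes the mitochondrial acyl carrier protein, which is present once in each arm and also serves mitochondrial fatty acid synthesis (ENSMUSG00000030869, chromosome 7 from 122085403 to 122101886). It measured 59.1, 66.6 and 60.9 TPM in osteoclasts and 22.4, 21.0 and 21.1 TPM in BMMs, without overlap, and its log2 fold change was 1.49 (SE 0.07, limma adjusted p = 4.2e-07). Of its partner subunits, Ndufa6 was 8.61 to 8.64 times the TPM of Ndufab1 in osteoclasts and 10.3 to 10.5 times in BMMs. Ndufb9 was 8.78 to 8.97 times in osteoclasts and 9.62 to 10.5 times in BMMs. Both ratios were lower in osteoclasts in every library. Ndufa4 (ENSMUSG00000029632, chromosome 6 from 11900292 to 11907497) measured 468, 549 and 412 TPM in osteoclasts and 178, 170.3 and 186 TPM in BMMs. The log2 fold change was 1.41 (SE 0.10, limma adjusted p = 5.0e-06). Its paralog Ndufa4l2 was at 0.190 TPM or less in every library and was not tested.

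The arms of the complex changed to a similar extent. The median log2 fold change was 1.02 in the matrix arm (16 genes, range 0.50 to 1.61). In the membrane arm it was 1.05 (19 genes, range 0.67 to 1.51). A log2 fold change of at least 1 was reached by 10 genes of each arm and, together with the call, by 13.6% of all genes tested. The difference of the medians, matrix minus membrane, was -0.024. This was less than its spread over libraries of 0.096, again the root of the summed squares of the SDs of both groups. The sign of the difference turned with single libraries. The difference was 0.028 without osteoclast replicate 1, 0.022 without osteoclast replicate 2 and 0.027 without BMM replicate 2, in a range of -0.080 to 0.028. The matrix arm summed to 3335, 3827 and 3505 TPM in osteoclasts and 1747, 1717 and 1728 TPM in BMMs. The membrane arm summed to 3845, 4464 and 3954 TPM in osteoclasts and 1929.9, 1937 and 1909 TPM in BMMs. Each sum was about doubled in osteoclasts, by 2.05 for the matrix arm and 2.12 for the membrane arm as ratios of the means. The matrix arm sum divided by the membrane arm sum was 0.867, 0.857 and 0.886 in osteoclasts and 0.905, 0.886 and 0.905 in BMMs, so that osteoclast replicate 3 and BMM replicate 2 met. On a mean log2 scale, which gives each gene equal weight, the matrix arm was above the membrane arm by 0.21 ± 0.03 in osteoclasts and 0.21 ± 0.01 in BMMs (SD, n = 3 each). By module, the median log2 fold change was 1.02 in the NADH module, 1.05 in the ubiquinone module, 0.96 in the proximal and 1.12 in the distal membrane arm.

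**Figure D3:**
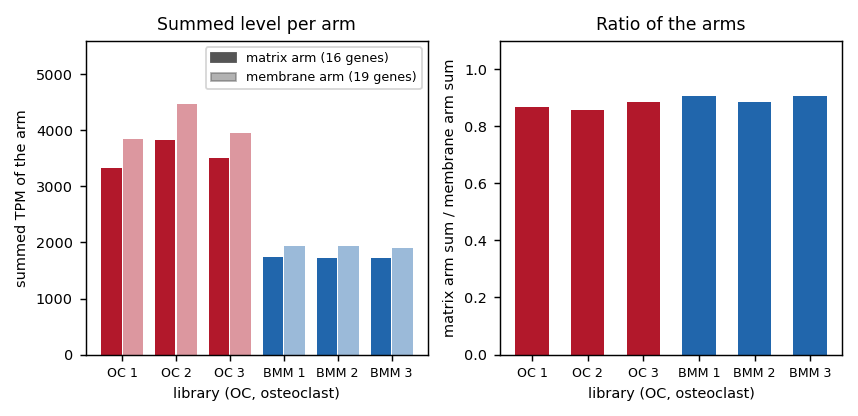
Left, summed TPM (y axis, from 0) of the 16 matrix arm genes (solid bars) and 19 membrane arm genes (pale bars) in each library, osteoclasts (OC) in red and BMMs in blue. Right, the ratio of these sums per library. Both sums are higher in the 3 osteoclast libraries (3335 to 4464 TPM) than in the 3 BMM libraries (1717 to 1937 TPM), while the ratio stays between 0.857 and 0.905.

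The osteoclast replicates differed in a way that most members shared. Osteoclast replicate 2 was the highest of the 3 in 33 of the 37 members, replicate 3 in the other 4 and replicate 1 in 0. Among all genes tested, replicate 2 was the highest in 30%, replicate 1 in 36.9% and replicate 3 in 33.1%. The pattern was not particular to complex I, since the summed TPM of complexes II, III, IV and V was also highest in replicate 2. In replicates 1, 2 and 3 the sums were 1832, 1898 and 1797 TPM for complex II and 4725, 5222 and 4947 TPM for complex III. They were 8199, 9267 and 8854 TPM for complex IV and 6556, 6949 and 6725 TPM for complex V. The counts for the members were again 33, 4 and 0 after median-ratio scaling. The lowest value fell on replicate 1 in 21 members and on replicate 3 in 16. In BMMs the highest value fell on replicate 1, 2 and 3 in 15, 10 and 12 members. The median relative SD was 8.71% in osteoclasts and 2.49% in BMMs for the members, and 10.4% in osteoclasts and 4.01% in BMMs for all genes tested. The members with the largest relative SD in osteoclasts, Ndufc1 (26.2%), Ndufc2 (23.6%), Ndufa5 (20.3%), Ndufv2 (18.3%) and Ndufb5 (17.9%), all had their lowest value in replicate 3. Osteoclast replicate 2 also differed in Gm23935, a short noncoding locus chosen after its values were seen, which took 3.71%, 0.423% and 3.52% of TPM in osteoclasts and 6.81%, 7.10% and 5.72% in BMMs, and the part of this locus in the result was not tested. Without osteoclast replicate 2 all 37 members were still called higher, with log2 fold changes of 0.45 to 1.58.

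Among the members, genes with more annotated exonic bases had lower TPM. Over the 37 genes, Spearman's rho of exonic length (all exons of the gene in GENCODE vM21) and osteoclast level was -0.64, and Pearson's r on log2 values was -0.67. This is a description, since TPM is itself divided by a length that the authors' pipeline took from an annotation. The 8 members with over 3000 exonic bases had mean osteoclast levels of 17.1 to 169 TPM, and the other 29 had 55.4 to 556 TPM. With the median length of coding transcripts in place of all exons, rho was -0.22. For exonic length and log2 fold change, Spearman's rho was 0.17, and the median log2 fold change was 1.03 for the 8 long genes and 1.05 for the other 29. The fold changes compare the same gene between groups, whereas levels between genes, with Ndufb2 (5628 exonic bases) at the bottom, rest on the length used. The order of the members under another length was not computed.

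**Figure D4:**
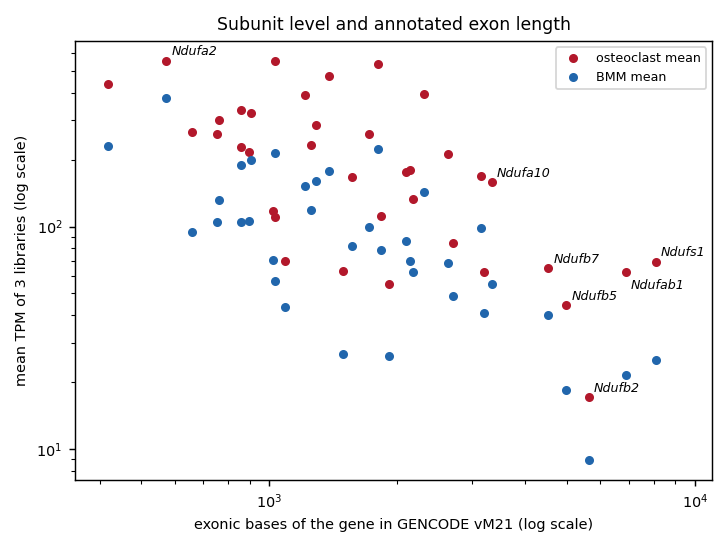
Mean TPM of 3 libraries (y axis, log scale) against the exonic bases of each member in GENCODE vM21 (x axis, log scale), with osteoclast means in red and BMM means in blue. The red points of the 8 genes over 3000 bases lie at 17.1 to 169 TPM, while those of the other 29 reach 556 TPM.

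The core subunits of the membrane arm, encoded by the mitochondrial genome, were mostly higher in osteoclasts as well, but with a much wider spread. Of the 7 mt-Nd genes, 5 were called higher, against 45.3% of all genes tested. The median log2 fold change of the 7 was 1.07. mt-Nd1, which forms much of the ubiquinone channel, measured 3460, 3843 and 1989 TPM in osteoclasts and 1333, 1431 and 1469 TPM in BMMs, a log2 fold change of 1.08 (SE 0.22, limma adjusted p = 0.0024). The antiporter-like subunits mt-Nd2, mt-Nd4 and mt-Nd5, which form the proton channels, had log2 fold changes of 1.09, 0.93 and 0.94, each without overlap of the groups. Osteoclast replicate 3 was the lowest osteoclast library in all 7 genes. mt-Nd6, on the other strand of the mitochondrial genome, measured 1042, 1867 and 312 TPM in osteoclasts and 366, 401 and 444 TPM in BMMs, and its log2 fold change of 1.07 missed the threshold (adjusted p = 0.11 from limma). It depended on single osteoclast libraries, at 0.50 without replicate 2 (adjusted p = 0.36 from limma) and at 1.79, where it was called, without replicate 3. mt-Nd3 had a log2 fold change of 0.95 (adjusted p = 0.10 from limma) and also moved with single libraries, to 0.54 without osteoclast replicate 1 (adjusted p = 0.34 from limma) and to 1.503, where it was called, without osteoclast replicate 3. mt-Nd4l was called at 1.12 (adjusted p = 0.025 from limma), but its groups overlapped, and the call was lost when any 1 of osteoclast replicates 1 and 2 and BMM replicates 1 and 2 was left out (0.83 to 1.03) and with no filter on low values. Both genes were far below mt-Nd1. mt-Nd3 measured 27.7, 18.8 and 6.56 TPM in osteoclasts and 7.46, 11.0 and 4.84 TPM in BMMs. mt-Nd4l measured 11.8, 8.67 and 3.96 TPM in osteoclasts and 2.36, 2.04 and 4.83 TPM in BMMs. With a pseudocount of 0.1 TPM the log2 fold change of mt-Nd4l was 1.34. Nearly all of mt-Nd4l (98.0% of windows), mt-Nd3 (97.0%) and much of mt-Nd4 (59.2%) also occur in annotated nuclear copies, so their levels are uncertain. These copies were at 1.44 TPM or less in every library. Between them, the 7 genes summed to 8685 ± 2774 TPM in osteoclasts and 4044 ± 216 TPM in BMMs, and the 36 nuclear complex I genes to 7705 ± 582 TPM in osteoclasts and 3678 ± 20.7 TPM in BMMs (SD, n = 3 each).

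Most assembly factors, which build complex I but do not stay in it, were also higher. Of 14 factors, 13 were called higher and 1 lower, against 45.3% and 23.5% of all genes tested. The median log2 fold change of the factors was 0.83. After median-ratio scaling or quantile normalization, 12 of the factors were called higher. With a filter at a mean of 5 TPM, or after rescaling without mitochondrially encoded and the 20 most abundant genes, the count was also 12. The largest changes were those of Ndufaf4, an early assembly factor (19.1, 22.2 and 14.8 TPM in osteoclasts, against 3.22, 3.84 and 3.98 TPM in BMMs, log2 fold change 2.06), and Ecsit, a factor of the membrane arm intermediate (43.1, 41.7 and 44.2 TPM in osteoclasts, against 9.95, 10.0 and 10.5 TPM in BMMs, log2 fold change 1.98). Both stood above every structural subunit in fold. Ndufaf7, a methyltransferase needed for assembly of the complex, was at 0.33. Tmem126b, which works with Ecsit in the same intermediate, was the gene called lower, at 13.1, 15.4 and 11.4 TPM in osteoclasts and 16.5, 16.6 and 16.5 TPM in BMMs (log2 fold change -0.31, adjusted p = 0.028 from limma). Its groups did not overlap, but the call was lost when osteoclast replicate 1, osteoclast replicate 3 or any BMM replicate was left out, and with no filter on low values.

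Beside the nuclear genes of the other complexes of oxidative phosphorylation, those of complex I had the smallest median change, close to those of complexes IV and V. All 4 genes of complex II, all 9 of complex III, all 10 of complex IV and all 15 of complex V on the lists were called higher, with medians of 1.33, 1.52, 1.14 and 1.11 in that order, against 1.04 for the 36 genes of complex I. These medians were not tested against each other. Among all genes tested, 45.3% were called higher. The ranges of complex IV (0.97 to 1.23) and complex V (0.67 to 1.73) overlapped that of complex I (0.50 to 1.61). Ndufa4 (1.41) was not on the complex IV list and is counted in neither complex here. Uqcrb, the lowest gene of complex III, was at 1.28, and 26 of the 36 complex I genes were below it, while Cyc1, the cytochrome c1 of complex III, was at 2.13. The core genes of the matrix arm, at a median of 1.38, were within the range of complex II, which ran from 0.96 (Sdhc) to 1.49 (Sdhb). In summed TPM, complex I was higher in osteoclasts by a ratio of 2.10, complex II by 2.47, complex III by 3.11, complex IV by 2.18 and complex V by 2.40.

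**Figure D5:**
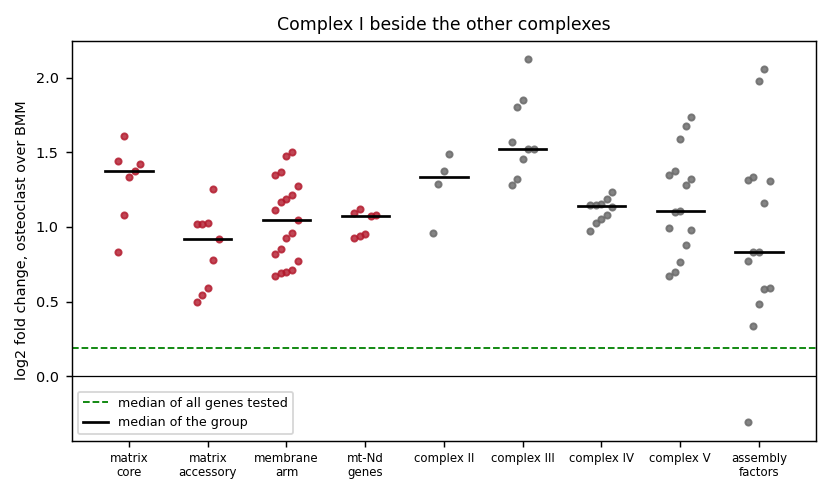
Log2 fold change (y axis, osteoclast over BMM) of each gene of complex I (red, matrix arm core and accessory, membrane arm, and mt-Nd genes) and of complexes II to V and the assembly factors (grey), with a black bar for each median and a dashed line for the median of all genes tested (0.19). The median of the matrix core genes (1.38) lies above that of the matrix accessory genes (0.92), while their ranges overlap (0.84 to 1.61 and 0.50 to 1.26), and the median of complex III (1.52) is the highest of the groups drawn.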

How the data were processed

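RNA-Seq was analysed from 3 osteoclast and 3 BMM libraries. The submitters' processing notes list bcl2fastq 2.17 for base call conversion, Trimmomatic 0.36 for trimming, STAR 2.5.2b for alignment and mm10 as the build, and the methods add DESeq2 on hit counts. The authors deposited TPM, which keep no depth, so no counting interval or count test was possible. Which counting tool and strand setting were used is not given in the sources used here, and overlapping and antisense genes may share reads. Genes were matched by identifier to GENCODE vM21 (49056 of 49315), and 176 rows had no gene name.

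Osteoclasts were compared with BMMs by limma 3.58.1 (R 4.3.3) on log2(TPM + 1) for 12325 genes averaging 1 TPM or more, with the intensity trend, two-sided tests and Benjamini-Hochberg adjustment over these genes. Fold changes on this scale understate the change of low genes. The step was tested on simulated data. Full statistics are given for the 2 largest and 2 smallest log2 fold changes of each arm, the 7 nuclear core genes, Ndufab1 and Ndufa4. Other lists are given by counts, with their extremes named. The members and lists were chosen with earlier results of these data known. Alternatives were other pseudocounts, filters and scalings, no trend in limma, a block for the replicate number, leaving out each library, and a fold minimum. Promoters are from RefSeq, and exact matches of transcript windows of 150 bases were counted over GENCODE transcripts. Promoters of 4 members were not used here. One core gene enters the fit, counts, medians and sums but is not reported here by itself. Python 3.11.15, pandas 2.3.3, NumPy 2.4.6, SciPy 1.17.1 and matplotlib 3.10.9 were used.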

Additional observations from a re-analysis of the deposited data

How the results depend on the processing

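All 37 members kept their call and direction in 555 of 555 tests over 15 settings (pseudocounts, filters, scalings, no trend, replicate block, each library left out), with adjusted p from limma up to 0.019 and log2 fold changes of 0.29 to 1.65. Scaling set the size of the change. The median was 0.81 in the matrix arm, 0.84 in the membrane arm and 0.0042 in all genes tested after median-ratio scaling, and 0.82, 0.84 and -0.015 after quantile normalization. After rescaling without mitochondrially encoded and the 20 most abundant genes, it was 0.85 in the matrix arm and 0.038 in all genes, and the mt-Nd genes gave no value because that setting removes them. With no filter the median of all genes was 0.041 and 0 assembly factors were lower. Leaving out single libraries gave a matrix minus membrane difference of -0.080 to 0.028, with 0.028, 0.022 and 0.027 without osteoclast replicates 1 and 2 and BMM replicate 2, and 0 to 1 assembly factors lower. A fold minimum of 1 on the log2 scale left 1673 genes higher and 941 lower, with 22 members (10 in each arm), 3 mt-Nd genes, 6 assembly factors higher and 0 lower, and 9 genes of complex V. The deviations of same-numbered libraries from their group means had correlations of -0.0490, -0.00281 and -0.0676. Those of differently numbered libraries had -0.0653 to 0.104. With no animals or cultures named, such values cannot show whether the replicate numbers pair the libraries. With the number as a replicate block, 5502 genes were higher and 2821 lower, all 37 members were called, and mt-Nd3 was called as well. The cause of these shifts was not tested.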
